A study of Mus musculus with 6 samples.

Results

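Macrophages that had received LPS together with 2 drugs, trichostatin A (TSA) and GW3965, were compared with macrophages that had received LPS and neither drug. The comparison rests on 2 of the 6 arrays of the study, the array TSA + GW3965 + LPS and the array LPS, with 1 array on each side. It covers every gene named on the array. Readings were floored at each array's own 25th percentile, and a gene counted as measured when the brighter of its 2 readings stood at or above the median of its array. Of 8841 named genes, 4725 were measured in this pair.

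All cells were thioglycollate-elicited macrophages, phagocytes that a sterile irritant draws into tissue. The donor mice were C57BL/6 females, 6 weeks old. No allele or transgene is given. The groups were TSA + GW3965 + LPS, TSA + LPS, GW3965 + LPS, LPS, TSA and No treatment, each with 1 array. The labels state no dose, no time, no order of drug and LPS, and no pooling of animals. With 1 array a group no error can be given for a pair, and its differences are described as higher or lower without a test.

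LPS, lipopolysaccharide of Gram-negative bacteria, is sensed by Toll-like receptor 4 and switches on cytokine, chemokine and interferon-dependent genes. TSA inhibits histone deacetylases, which remove acetyl groups from histones and other proteins. GW3965 is a synthetic LXR agonist. The liver X receptors (LXR) are oxysterol-sensing nuclear receptors that drive cholesterol export and fatty acid synthesis and are also known to restrain inflammatory genes in macrophages.

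The TSA + GW3965 + LPS and LPS arrays ranked the genes with a Spearman correlation of 0.969, across genes, which are not independent replicates. All 8 macrophage markers on the array stood at or above the array median on both arrays, with a summed level of 1082 units in TSA + GW3965 + LPS and 1260 units in LPS. The 8 neutrophil markers summed to 74.9 units in TSA + GW3965 + LPS and 52.7 units in LPS, and the granule genes Elane and Mpo lay at the floor on both. Of the 8, 4 were measured in the pair, with a median difference of -0.51: Prtn3 stood at least 2-fold higher with both drugs, and Camp and Csf3r were lower, at -1.61 and -1.62. Of 7 T cell markers 4 stood at or above the array median in TSA + GW3965 + LPS and 3 in LPS, with a summed level of 37.2 units and 37.5 units, while Cd3e and Cd8a lay at the floor on all 6 arrays. Fewer cells of a type and less RNA per cell cannot be told apart in such samples, and the part of these markers in the results below was not tested.

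With both drugs, 297 measured genes (6.29%) were at least 2-fold higher and 204 (4.32%) at least 2-fold lower than with LPS alone. The other 4224 genes lay within 2-fold. Of 476 genes with 1 reading under its array median 108 were higher and 50 lower. Of 4249 with both readings at or above it 189 were higher and 154 lower. The 476 have their other reading at or above its median, so this split itself favours differences. It does not show whether 2-fold differences were denser at low levels. The median difference was -0.01 on the log2 scale, and 90 percent of the genes fell between -0.95 and 1.11. The deposited arrays had been scaled to nearly the same median, which sets this centre. TSA + LPS against LPS gave 363 higher and 458 lower genes, and GW3965 + LPS against LPS gave 22 higher and 58 lower. These 3 comparisons share the LPS array.

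Limma was fitted to the log2 levels of 5080 genes on all 6 arrays, with additive terms for TSA, GW3965 and LPS. No group has a replicate, so the error of this fit is how far the arrays depart from additive effects. It is not a spread between replicates. The combined drug effect is the sum of its TSA and GW3965 terms, and a call needs a two-sided p, adjusted by Benjamini and Hochberg's method, under 0.05. The combined effect rose for 156 genes (3.07%) and fell for 48 (0.945%). Of these 204 genes, 195 were also at least 2-fold apart in the pair itself, beside 501 of all 4725 measured genes (10.6%). Both arrays of the pair enter the fit, so this overlap is not a separate check. The standard error (SE) of the effect had a median of 0.36 log2 units and ran from 0.27 to 1.19. The fit takes 1 TSA effect for arrays with and without LPS, so a gene on which TSA acts only under LPS has a smaller effect and a larger SE in it. All 204 calls were lost with the floor raised to the array median, and 77 of them remained without the LPS array, which the values below name where they turn on it.

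**Figure D1:**
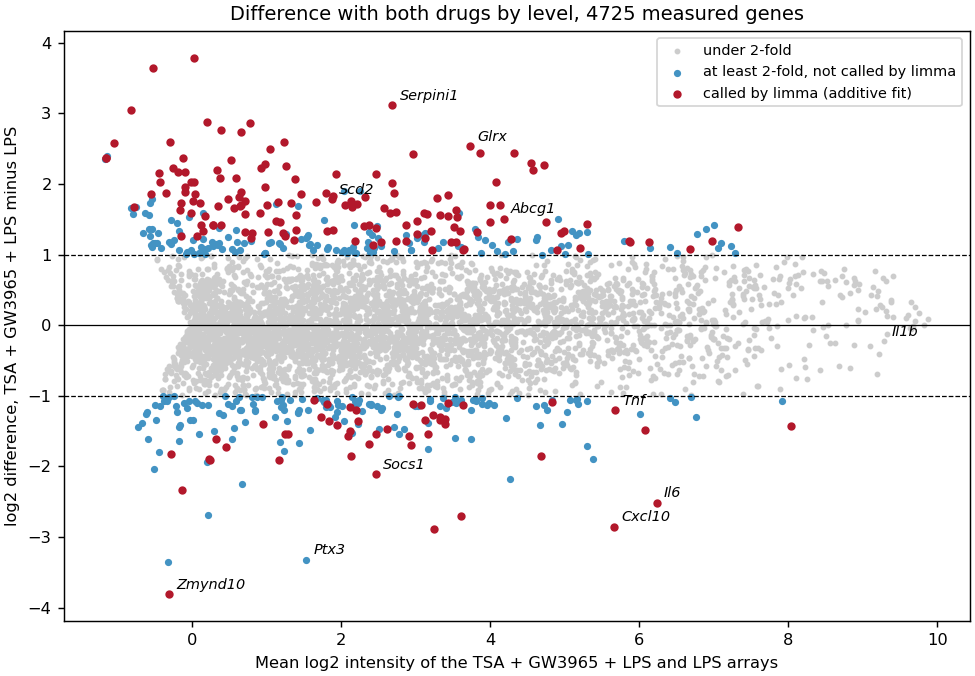
Each point is 1 of 4725 measured genes. The x axis gives the mean log2 intensity of the TSA + GW3965 + LPS and LPS arrays and the y axis the log2 difference, TSA + GW3965 + LPS minus LPS. Dashed lines mark 2-fold and red points are limma calls. Of 476 genes with 1 reading under its array median 22.7% are higher and 10.5% lower, and of 4249 with neither under it 4.45% and 3.62%. The 476 have readings on both sides of the array medians, which itself favours differences. Il6, Cxcl10 and Tnf are among the brighter lower ones.

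The 15 genes lowest with both drugs include cytokines, chemokines and other secreted products of the LPS response. Limma called a fall for 8 of the 15, beside 48 of all 5080 genes (0.945%). The 2 arrays that chose the 15 also enter the fit, which favours the count of 8. On the LPS array 14 of the 15 were at least 2-fold above No treatment, beside 669 of all 4790 genes measured in that pair (14%). That array also chose the 15 genes, which favours this count. Cxcl10, an interferon-induced chemokine that attracts T cells, read 18.9 units in TSA + GW3965 + LPS, 52.4 in TSA + LPS, 24.7 in GW3965 + LPS and 137 in LPS, with 0.37 in TSA and 0.467 in No treatment. It was the lowest of the 4 LPS-treated arrays with both drugs, and each single drug with LPS also stood below LPS alone. The pair difference was -2.85 on the log2 scale, 7.24-fold lower with both drugs, and the effect in the fit was -2.67 (SE 0.37, adjusted p = 0.000486 by limma).

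Il6, a cytokine of fever and the acute phase response, read 31.5 units in TSA + GW3965 + LPS, 52.9 in TSA + LPS, 126 in GW3965 + LPS and 180 in LPS. The 2 arrays without LPS read 0.447 in TSA and 0.413 in No treatment. The order of the 4 LPS-treated arrays thus ran from both drugs at the bottom over TSA and GW3965 to LPS alone at the top. Il6 was 5.72-fold lower with both drugs and its effect in the fit fell by 1.85 (SE 0.47, adjusted p = 0.0367 by limma), with an adjusted p of 0.146 without the LPS array. Socs1, a feedback inhibitor of interferon and cytokine signalling, read 2.67 units in TSA + GW3965 + LPS, 6.32 in TSA + LPS, 6.00 in GW3965 + LPS and 11.5 in LPS. Each single drug with LPS gave a level between those of both drugs and neither, and the effect in the fit was -1.88 (SE 0.36, adjusted p = 0.0082 by limma).

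The promoters of these 3 genes are shown because each carries a match to a motif of the LPS and interferon response. They are RefSeq windows on GRCm38.p6, 250 bases up to the transcription start, written 5′ to 3′ on the strand of the gene. Capitals mark matches on either strand to GAAANNGAA, the core of the interferon-stimulated response element (ISRE), and to GGANTTTCC, an NF-kB site. The Cxcl10 window, chr5:92348890-92349139 on the minus strand, holds 1 ISRE and 1 NF-kB match. The Il6 window, chr5:30012864-30013113 on the plus strand, holds 1 NF-kB match. The Socs1 window, chr16:10785537-10785786 on the minus strand, holds 2 ISRE matches that overlap each other.
Cxcl10: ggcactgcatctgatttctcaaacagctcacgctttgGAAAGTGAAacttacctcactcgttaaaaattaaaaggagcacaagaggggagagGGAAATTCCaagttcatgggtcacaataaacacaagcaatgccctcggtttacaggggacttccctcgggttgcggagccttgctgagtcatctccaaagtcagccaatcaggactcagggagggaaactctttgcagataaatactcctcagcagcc
Il6: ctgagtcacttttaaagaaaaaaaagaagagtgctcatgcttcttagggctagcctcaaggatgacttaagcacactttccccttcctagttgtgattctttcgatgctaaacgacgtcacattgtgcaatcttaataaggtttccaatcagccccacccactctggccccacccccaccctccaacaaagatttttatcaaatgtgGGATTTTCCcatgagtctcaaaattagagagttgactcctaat
Socs1: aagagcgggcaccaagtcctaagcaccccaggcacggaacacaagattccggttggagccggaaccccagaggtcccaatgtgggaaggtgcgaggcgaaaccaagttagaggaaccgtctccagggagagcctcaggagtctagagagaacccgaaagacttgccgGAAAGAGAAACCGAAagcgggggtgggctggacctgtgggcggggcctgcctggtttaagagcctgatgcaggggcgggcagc

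Across windows from 250 bases before to 50 after the start, the ISRE letters stood in 21 of 166 genes with a window among the lower genes (12.7%), 15 of 233 higher genes (6.44%) and 357 of 3856 measured genes (9.26%). The NF-kB letters stood in 7 lower genes (4.22%), 1 higher gene (0.429%) and 63 measured genes (1.63%). TGANTCA, the AP-1 site, stood in 20 lower (12.05%), 15 higher (6.44%) and 280 measured genes (7.26%). Of the 15 lowest genes 13 had a window. The ISRE letters stood in 4 of these (Ccl19, Cxcl10, Edn1 and Socs1). The NF-kB letters stood in 2 (Cxcl10 and Il6), as did the AP-1 letters. A gene counted here when any of its windows held the letters. Over all 32851 windows, counted by window and not by gene, the shares were 8.56% for ISRE, 1.25% for NF-kB and 7.81% for AP-1. Each motif stood in a larger share of the lower genes with a window than of the higher genes, and none of these shares was tested. A match describes letters in the window and not a site in use.

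Other secreted and signalling products were among the 15 lowest. Ptx3, a soluble pattern recognition protein, read 0.915 units in TSA + GW3965 + LPS, 0.681 in TSA + LPS, 7.61 in GW3965 + LPS and 9.14 in LPS, a difference of -3.32 with both drugs. It was low on both arrays with TSA and high on both without it, and limma did not call it (adjusted p = 0.0913, with the floor on both arrays without LPS). Edn1, the vasoconstrictor endothelin-1, read 4.81 units in TSA + GW3965 + LPS, 6.15 in TSA + LPS, 12.6 in GW3965 + LPS and 31.3 in LPS, so each single drug with LPS stood below LPS alone. Its fall of 2.08 in the fit (SE 0.48, adjusted p = 0.026 by limma) had an adjusted p of 0.425 without the LPS array. Ifng, the cytokine interferon gamma, differed by -2.25 and the chemokines Ccl24 and Ccl19 by -2.69 and -1.93, none of them called.

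Vnn3, a vanin-family amidohydrolase gene, was 7.37-fold lower with both drugs, the chitinase-like Chil1 4.55-fold, Itgal, the alpha chain of the integrin LFA-1, 3.77-fold, Ifitm7 5.07-fold and Gpr31b 4.1-fold. Arhgef2 was 10.2-fold lower, at 0.25 units in TSA + GW3965 + LPS, 0.314 in TSA + LPS, 1.70 in GW3965 + LPS and 2.56 in LPS. Limma called Vnn3, Itgal and Ifitm7, with adjusted p of 0.0304, 0.0489 and 0.032. Without the LPS array these became 0.336, 0.694 and 0.246. Zmynd10, a factor for assembling ciliary dynein arms, lay at the floor on all 3 arrays with a drug and LPS and read 3.03 units in LPS, 1.32 in TSA and 1.84 in No treatment, so it was at least 14-fold lower with both drugs. Its call (adjusted p = 0.0182 by limma) had an adjusted p of 0.763 without the LPS array.

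**Figure D2:**
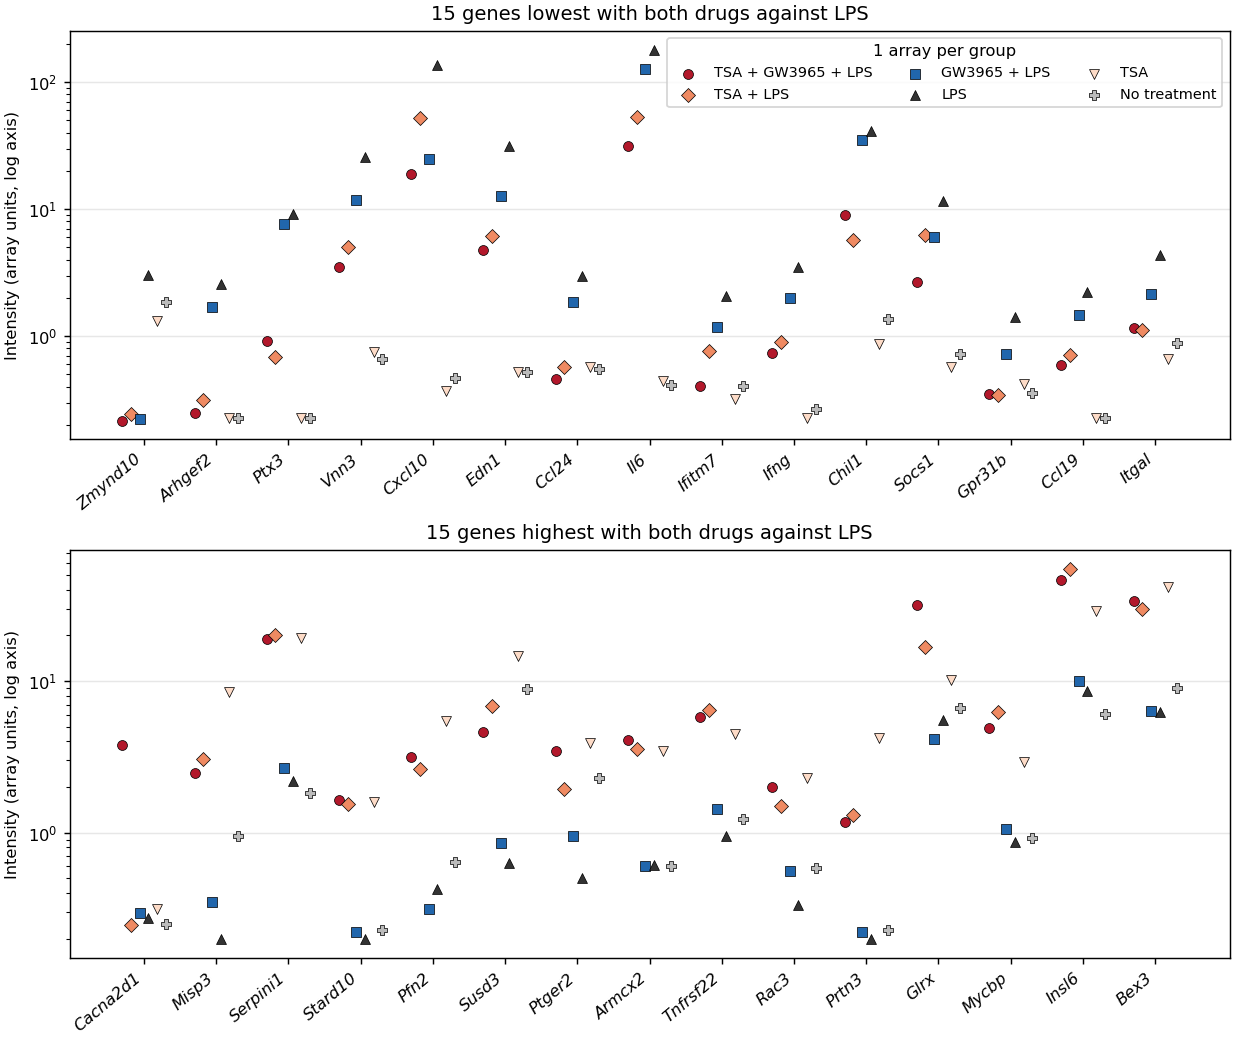
Intensity in array units on a log axis for the 15 lowest genes (upper panel) and the 15 highest genes (lower panel), 1 point per array and 6 arrays in all. Readings under an array's 25th percentile are drawn at that floor. In the upper panel LPS alone is the highest of the 6 arrays for each gene, and in the lower panel the arrays with TSA stand above the arrays without it except for Cacna2d1, where the TSA + GW3965 + LPS array stands alone, and Susd3 and Ptger2, where No treatment is also high.

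Of the 15 genes highest with both drugs, 14 were also 2-fold or more above LPS in TSA + LPS, beside 363 of all 4794 genes (7.57%), and 0 in GW3965 + LPS, beside 22 of 4622 (0.476%). Both counts reuse the LPS array, on which the 15 were chosen for low readings. Serpini1, the serine protease inhibitor neuroserpin, read 19.0 units in TSA + GW3965 + LPS, 20.1 in TSA + LPS, 2.66 in GW3965 + LPS, 2.19 in LPS, 19.1 in TSA and 1.83 in No treatment. The 3 arrays with TSA stood together and far above the 3 without it. The pair difference was 3.12, and the effect in the fit was 3.24 (SE 0.34, adjusted p = 5.54e-05 by limma), which was the smallest adjusted p of the 5080 genes.

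Limma called all 15 of the highest genes, beside 156 risen of all 5080 genes (3.07%). The 2 arrays that chose the 15 also enter the fit, which favours this count. Among the 15, Cacna2d1 was high on the TSA + GW3965 + LPS array alone. Pfn2, the actin-binding protein profilin 2, was 7.39-fold higher with both drugs. Ptger2, a receptor for prostaglandin E2, was 6.82-fold higher, and Glrx, the thiol reductase glutaredoxin, 5.80-fold. Glrx read 31.9 units in TSA + GW3965 + LPS, 16.7 in TSA + LPS, 4.13 in GW3965 + LPS and 5.50 in LPS, so the array with both drugs was the highest of the 4. Stard10, a phospholipid transfer protein, Misp3 and the granule protease gene Prtn3 lay at the floor in LPS and were at least 8.30-fold, at least 12.5-fold and at least 5.99-fold higher. Armcx2, Bex3, Insl6, Mycbp and Tnfrsf22 were 6.66-fold, 5.41-fold, 5.45-fold, 5.63-fold and 6.07-fold higher. Susd3 was 7.28-fold higher, and its adjusted p of 0.0321 became 0.535 without the LPS array. No treatment read 8.91 units of Susd3 and LPS 0.636.

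Genes induced by LPS were examined as a class, chosen on a pair that shares no array with the comparison, at least 4-fold higher in GW3965 + LPS than in No treatment. Of 206 such measured genes, 50 (24.3%) were at least 2-fold lower with both drugs than with LPS alone and 7 (3.40%) at least 2-fold higher, with a median difference of -0.52 and 161 of the 206 below 0. Over all measured genes the shares were the 4.32% and 6.29% given above, with 2385 of 4725 genes below 0. Of the 3981 genes in neither this class nor the next, 117 (2.94%) were lower and 238 (5.98%) higher. Genes that were at least 2-fold lower in GW3965 + LPS than in No treatment went the other way, with 12 of 232 (5.17%) lower and 45 (19.4%) higher with both drugs.

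The induced genes in TSA + LPS against LPS gave 48 of 205 lower (23.4%) and 8 higher, with a median of -0.54, against the same LPS array. Over all genes of that pair 458 of 4794 were lower (9.55%) and 363 higher (7.57%). In TSA + GW3965 + LPS against TSA + LPS, a pair without the LPS array, 6 of 201 induced genes were lower, 2 were higher and the median was -0.03. Over all genes of that pair, 27 of 4682 were lower and 82 higher.

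**Figure D3:**
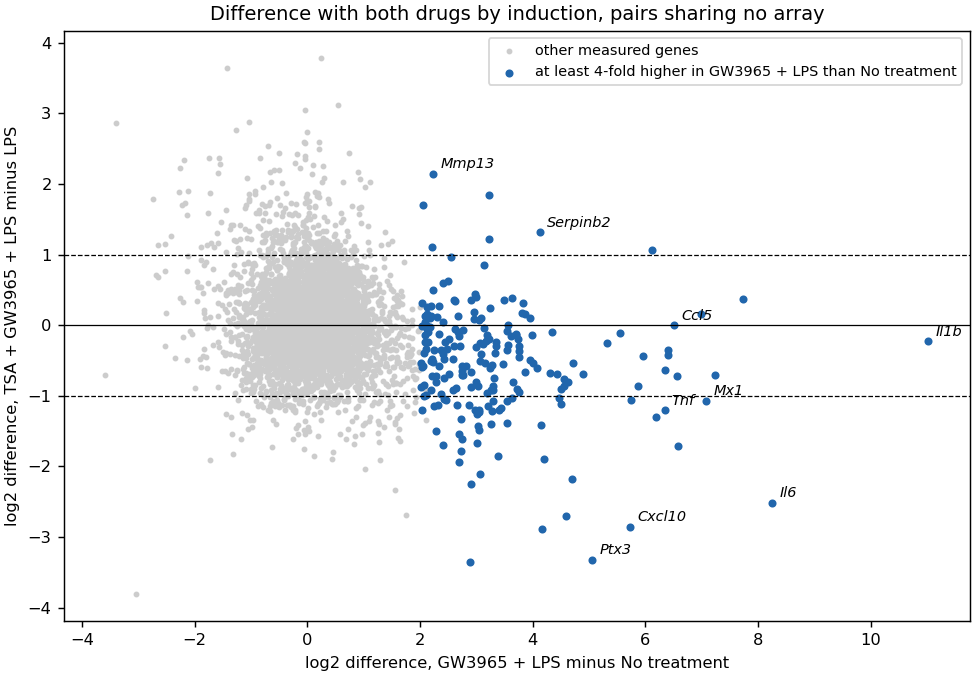
Each point is 1 of 4725 measured genes. The x axis gives the log2 difference GW3965 + LPS minus No treatment and the y axis TSA + GW3965 + LPS minus LPS, 2 pairs with no array in common. The 206 genes induced at least 4-fold are drawn in blue. Of these, 161 lie below 0 and 50 lie below the dashed line at -1.

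The 10 induced genes with the smallest differences lay within 1.04-fold of LPS. Among them Ccl5, a T cell and monocyte chemokine, read 901 units in TSA + GW3965 + LPS, 1116 in TSA + LPS, 856 in GW3965 + LPS and 900 in LPS, with 9.42 in No treatment. These readings lie near the highest of their arrays, 971 units in TSA + GW3965 + LPS and 913 in LPS, and whether so bright a probe can still register a difference was not tested. Irf1, a transcription factor of the interferon response, read 141 units in TSA + GW3965 + LPS, 158 in TSA + LPS, 143 in GW3965 + LPS and 146 in LPS. The guanylate-binding protein Gbp2 read 53.7 units in TSA + GW3965 + LPS, 31.0 in TSA + LPS, 40.5 in GW3965 + LPS and 55.4 in LPS. For Gbp2 the array with both drugs stood at the level of LPS while each single drug with LPS stood lower. Gem, Ifi202b, Lrfn1, P2ry14, Rab20, Sppl2a and Spry1 completed these 10, whose small differences are what chose them.

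The inflammatory genes were then read by role. Over all measured genes 4.32% were at least 2-fold lower and 6.29% higher, and in the fit 0.945% fell. Of 16 measured cytokines 7 were at least 2-fold lower with both drugs and 0 higher, with a list median of -0.63, and limma called a fall for 3 of 17. Tnf, the early macrophage cytokine, read 33.6 units in TSA + GW3965 + LPS, 26.1 in TSA + LPS, 52.5 in GW3965 + LPS and 77.3 in LPS, and its effect in the fit was -1.33 (SE 0.36, adjusted p = 0.0447 by limma). It was lower on both arrays with TSA than on both without it, and its adjusted p was 0.268 without the LPS array and 0.121 without the GW3965 + LPS array. Il1b, a fever-inducing cytokine, read 576 units in TSA + GW3965 + LPS, 475 in TSA + LPS, 748 in GW3965 + LPS and 674 in LPS, a difference of -0.22 that was not called. Il12a, a subunit of interleukin 12, differed by -1.72 (adjusted p = 0.0865 by limma), the growth factor Csf2 by -1.21, and Ebi3, a subunit of interleukin 27, by -1.05. Tgfb1, an immunosuppressive cytokine, fell by 1.38 in the fit (SE 0.37, adjusted p = 0.0445 by limma), with adjusted p of 0.0709 without the TSA array and 0.0761 without No treatment.

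Of 20 measured chemokines 3 were at least 2-fold lower and 1 higher, with a median of -0.36, and Cxcl10 was the only one called. Ccl22, a ligand of Ccr4, differed by -1.18 and Cxcl14 by 1.06. The monocyte chemokine Ccl2 read 347 units in TSA + GW3965 + LPS, 547 in TSA + LPS, 281 in GW3965 + LPS and 412 in LPS. The neutrophil chemokine Cxcl1 read 223 units in TSA + GW3965 + LPS, 180 in TSA + LPS, 260 in GW3965 + LPS and 172 in LPS. Both lay within 2-fold of LPS. The 4 of 20 chemokines that were 2-fold apart stand beside 501 of 4725 measured genes (10.6%).

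All 33 measured interferon-stimulated genes read below LPS with both drugs, 11 of them by 2-fold or more, with a median of -0.71. Their medians were -0.84 in TSA + LPS and -0.81 in GW3965 + LPS, against the same LPS array. Over all measured genes 2385 of 4725 read below LPS, 4.32% were at least 2-fold lower and 0.945% fell in the fit. Irf7, the transcription factor that amplifies type I interferon, read 160 units in TSA + GW3965 + LPS, 241 in TSA + LPS, 258 in GW3965 + LPS and 433 in LPS. The array with both drugs was the lowest of the 4, and the effect in the fit was -1.18 (SE 0.32, adjusted p = 0.0463 by limma). The adjusted p of Irf7 was 0.278 without the LPS array and 0.0704 without the GW3965 + LPS array. Adar, an RNA-editing deaminase, also fell, by 1.33 (SE 0.37, adjusted p = 0.0487), with an adjusted p of 0.407 without the LPS array, 0.0879 without GW3965 + LPS, 0.0601 without TSA and 0.0626 without No treatment. The other 32 of 34 fitted genes were not called, among them Isg20, an antiviral exonuclease, at -1.89, the peptide transporter Tap1 at -1.47, Irf8, a macrophage lineage factor, at -1.36 and the antiviral GTPases Mx1 and Mx2 at -1.07 and -1.06. Ifit3, Rsad2 and Isg15 differed by -0.35, -0.11 and -0.30.

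Among 21 genes of NF-kB, AP-1 and feedback control, 6 were at least 2-fold lower, 0 higher and 20 below 0, with a median of -0.57. Over all measured genes 4.32% were lower and 6.29% higher, and 0.945% fell in the fit. Limma called a fall for Socs1, Nfkb2 and Tnip1 of 21 fitted. Nfkb2, the p100 precursor of an NF-kB subunit, read 6.61 units in TSA + GW3965 + LPS, 5.96 in TSA + LPS, 9.63 in GW3965 + LPS and 16.7 in LPS. Nfkbia, the NF-kB inhibitor, read 156 units in TSA + GW3965 + LPS, 191 in TSA + LPS, 171 in GW3965 + LPS and 198 in LPS, a difference of -0.34 that was not called. The adjusted p of Nfkb2 was 0.0373 and that of Tnip1, an adaptor of the A20 deubiquitinase, 0.0285. Without the LPS array they became 0.255 and 0.0735, and Nfkb2 had 0.0651 without GW3965 + LPS. Socs3 differed by -1.17, the mRNA decay factor Zfp36 by -1.31 and the adaptor Traf2 by -1.20.

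Secreted mediators and enzymes moved both ways, 8 of 21 lower and 4 higher, beside 4.32% and 6.29% of all measured genes. Arg2, the mitochondrial arginase, read 20.5 units in TSA + GW3965 + LPS, 12.3 in TSA + LPS, 11.7 in GW3965 + LPS and 5.70 in LPS, and rose by 1.95 in the fit (SE 0.34, adjusted p = 0.00338 by limma). Each single drug with LPS stood above LPS alone and both together stood highest. The collagenase Mmp13 and Ltc4s, the leukotriene C4 synthase, also rose, with pair differences of 2.14 and 1.76. The membrane metalloprotease Mmp14 fell, with a pair difference of -1.86. The adjusted p was 0.0423 for Mmp13, 0.0147 for Ltc4s and 0.0285 for Mmp14, and without the LPS array it was 0.0539 for Ltc4s and 0.191 for Mmp14. Ptgs2, the inducible cyclooxygenase, read 1.55 units in TSA + GW3965 + LPS and 3.56 in LPS. Nos2, the inducible nitric oxide synthase, read 2.33 units in TSA + GW3965 + LPS, 4.98 in TSA + LPS, 3.15 in GW3965 + LPS and 5.17 in LPS, and neither gene was called.

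Receptors and antigen presentation genes were read the same way, beside 4.32% lower and 6.29% higher over all measured genes. None of these lists was tested against those shares. Of 17 Toll-like receptor genes and adaptors 3 were lower (Tlr3, Cd14 and Irak1), 0 higher and 0 called. Cd14, the LPS co-receptor, read 167 units in TSA + GW3965 + LPS, 174 in TSA + LPS, 339 in GW3965 + LPS and 351 in LPS. Among these LPS-treated arrays, those with TSA stood at a lower level than those without it. Of 20 genes of MHC class I and II antigen presentation 3 were lower, with a median of -0.60, among them the invariant chain Cd74 at -1.11, and 0 were called. Of 27 surface receptors of activated macrophages 2 were lower, with the costimulatory receptor Cd40 at -1.30, and 3 were higher, with the chemokine receptor Ccr1 at 1.24.

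Of 19 measured LXR targets 2 were at least 2-fold higher with both drugs, Abcg1 and Scd2, and 4 were lower, with a median of -0.07. Over all measured genes 6.29% were higher and 4.32% lower. Abcg1, a cholesterol exporter, read 30.6 units in TSA + GW3965 + LPS, 5.66 in TSA + LPS, 31.1 in GW3965 + LPS, 10.8 in LPS, 13.2 in TSA and 20.04 in No treatment. The 2 arrays with GW3965 stood above the other 4. Its combined effect rose by 1.47 (SE 0.35, adjusted p = 0.0293 by limma). Scd2, a fatty acid desaturase, read 6.83 units in TSA + GW3965 + LPS, 1.24 in TSA + LPS, 8.47 in GW3965 + LPS and 1.98 in LPS, and rose by 1.45 (SE 0.38, adjusted p = 0.0393 by limma), with 0.092 without the LPS array. TSA + LPS stood below LPS for both genes, at -0.93 for Abcg1 and -0.68 for Scd2. GW3965 + LPS stood above LPS, at 1.53 and 2.10. Without LPS, Scd2 read 2.35 units in TSA and 6.60 in No treatment, the latter near the level with both drugs.

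Eepd1, an LXR-responsive gene that is outside the fixed lists and was chosen after its values were seen, read 9.41 units in TSA + GW3965 + LPS, 2.15 in TSA + LPS, 10.4 in GW3965 + LPS and 2.66 in LPS. It followed the same order as Scd2, and its combined effect rose by 1.89 (SE 0.33, adjusted p = 0.00382 by limma). Acsl3, an acyl-CoA synthetase, read 13.003 units in TSA + GW3965 + LPS, 6.73 in TSA + LPS, 14.5 in GW3965 + LPS and 5.76 in LPS, and was not called (adjusted p = 0.0771). Without LPS, Acsl3 read 11.6 units in TSA and 13.7 in No treatment. The GW3965 term of the fit alone was called for Abcg1, Scd2, Eepd1 and Cxcl10, at 1.98, 2.28, 2.05 and -1.97 on the log2 scale. These 4 were all its calls.

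The 4 lower LXR targets were Nr1h3, Mgll, Rassf1 and Ch25h, the last 2 at -1.06 and -1.30. In the same order they also read below LPS in GW3965 + LPS, at -0.68, -0.67, -0.64 and -2.45. In TSA + LPS they stood at -2.25, -2.07, -1.44 and -0.44. The list medians in TSA + LPS and GW3965 + LPS were -0.53 and 0.14. Nr1h3, the receptor LXR alpha itself, read 4.90 units in TSA + GW3965 + LPS, 3.48 in TSA + LPS, 10.3 in GW3965 + LPS and 16.5 in LPS, and was not called (adjusted p = 0.0513). Mgll, a monoglyceride lipase, fell by 1.87 (SE 0.39, adjusted p = 0.0144 by limma), with 0.137 without the LPS array. Abca1, the other main cholesterol exporter, read 0.727 units in TSA + GW3965 + LPS, 0.349 in TSA + LPS, 0.416 in GW3965 + LPS and 0.276 in LPS, under the array medians and so not measured. Srebf1, the regulator of fatty acid synthesis, lay at the floor on all 6 arrays. Apoe, a carrier of exported lipid, read 132 units in TSA + GW3965 + LPS and 147 in LPS. Of 13 genes of cholesterol synthesis and uptake, 0 were 2-fold apart, with a median of -0.44. Without LPS, Fabp4 read 473 units in TSA and 297 in No treatment. The fatty acid carrier Fabp4 read 190 units in TSA + GW3965 + LPS, 180 in TSA + LPS, 123 in GW3965 + LPS and 83.1 in LPS, and rose by 1.13 (SE 0.30, adjusted p = 0.042 by limma), with 0.215 without the LPS array and 0.103 without GW3965 + LPS.

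**Figure D4:**
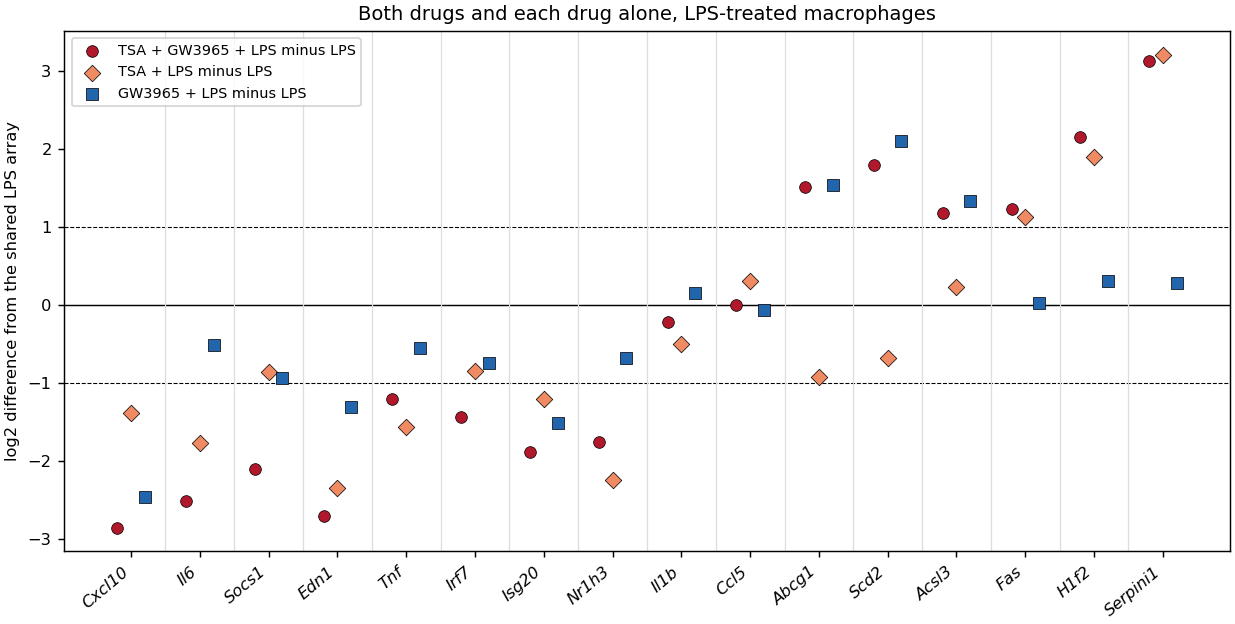
The log2 difference from the LPS array for 16 genes, with TSA + GW3965 + LPS, TSA + LPS and GW3965 + LPS as separate points. All 3 differences of a gene share the LPS array. For Cxcl10, Il6, Socs1, Edn1, Irf7 and Isg20 the point of both drugs is the lowest. For Abcg1, Scd2 and Acsl3 it lies near GW3965 + LPS, and for Fas, H1f2 and Serpini1 near TSA + LPS.

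Genes known to respond to deacetylase inhibitors were 3 of 19 higher and 2 lower, and limma called the same 5 of 21 fitted, beside the shares over all genes given above (6.29% and 4.32% in the pair, 3.07% risen and 0.945% fallen in the fit). H1f2, a linker histone, read 1.55 units in TSA + GW3965 + LPS, 1.30 in TSA + LPS, 0.43 in GW3965 + LPS and 0.349 in LPS, and rose by 2.02 (SE 0.40, adjusted p = 0.0094 by limma). Fas, a death receptor, read 29.7 units in TSA + GW3965 + LPS, 27.5 in TSA + LPS, 12.9 in GW3965 + LPS and 12.7 in LPS, and rose by 1.52 (SE 0.36, adjusted p = 0.0285 by limma). Among the LPS-treated arrays both genes were higher with TSA than without it. Without LPS, H1f2 read 3.63 units in TSA and 1.30 in No treatment, and Fas 5.73 and 1.38. The metal-binding protein Mt2 rose by 1.38 (SE 0.33, adjusted p = 0.0304), with 0.115 without the LPS array. Cdkn1a, the cell cycle inhibitor p21 and a textbook gene raised by these inhibitors, went the other way, at 4.28 units in TSA + GW3965 + LPS, 6.06 in TSA + LPS, 7.73 in GW3965 + LPS, 13.9 in LPS, 0.689 in TSA and 1.46 in No treatment. It fell by 1.72 (SE 0.34, adjusted p = 0.00918 by limma). Klf6, a zinc finger factor, also fell, by 1.51 (SE 0.41, adjusted p = 0.0445), and missed the threshold without any of the arrays GW3965 + LPS (0.0514), LPS (0.0561), TSA (0.113) or No treatment (0.124).

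Of 11 measured histone and deacetylase genes 3 were higher and 0 lower, with a median of 0.56. The histone variant H2az1 read 205 units in TSA + GW3965 + LPS, 220 in TSA + LPS, 106 in GW3965 + LPS and 91.7 in LPS, with an adjusted p of 0.0560. The deacetylase Hdac5 differed by 1.14 and Hdac1 by -0.16, neither called. Of 21 genes of glutathione, heme and oxidative stress 2 were higher and 3 lower, and of 25 genes of amino acid and unfolded protein stress 1 was higher and 4 lower. Over all measured genes 6.29% were higher and 4.32% lower, and none of these lists was tested against them. Gsta4, a glutathione transferase for lipid aldehydes, rose by 2.03 (SE 0.38, adjusted p = 0.00631 by limma) and Dnajb9, a chaperone of the endoplasmic reticulum, by 1.85 (SE 0.39, adjusted p = 0.0147). Keap1, the adaptor that marks Nrf2 for degradation, fell by 1.22 (SE 0.33, adjusted p = 0.0477), with 0.287 without the LPS array and 0.12 without GW3965 + LPS. Ppp1r15a, a phosphatase subunit of the stress response, fell by 1.24 (SE 0.34, adjusted p = 0.0481), with 0.354 and 0.1 without the same arrays. Hmox1, heme oxygenase 1, read 41.8 units in TSA + GW3965 + LPS, 29.7 in TSA + LPS, 98.8 in GW3965 + LPS and 99.8 in LPS, and was not called.

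Of 37 genes of actin, adhesion and motility 9 were at least 2-fold lower and 2 higher, with a median of -0.47 and 29 below 0. Over all measured genes 4.32% were lower and 6.29% higher, and in the fit 3.07% rose and 0.945% fell. Limma called 1 rise, Pfn2, and 4 falls. Capg, an actin-capping protein, read 40.6 units in TSA + GW3965 + LPS, 19.0 in TSA + LPS, 88.0 in GW3965 + LPS and 113 in LPS. Parvg, an integrin-linked adaptor, fell by 2.01 (SE 0.41, adjusted p = 0.0125 by limma). The focal adhesion protein Zyx, Capg and Itgal were the other falls, and their adjusted p of 0.0317, 0.0423 and 0.0489 became 0.364, 0.647 and 0.694 without the LPS array. Capg had 0.0881 without GW3965 + LPS. Of 47 ribosomal protein genes 44 read above LPS and 1 was 2-fold higher, with a median of 0.54, and of 30 oxidative phosphorylation genes 26 read above it and 2 were 2-fold higher, with a median of 0.46. Limma called 0 genes in either list. Over all measured genes 2340 of 4725 read above LPS, and the lysosome list had 0 of 31 genes 2-fold apart.

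**Figure D5:**
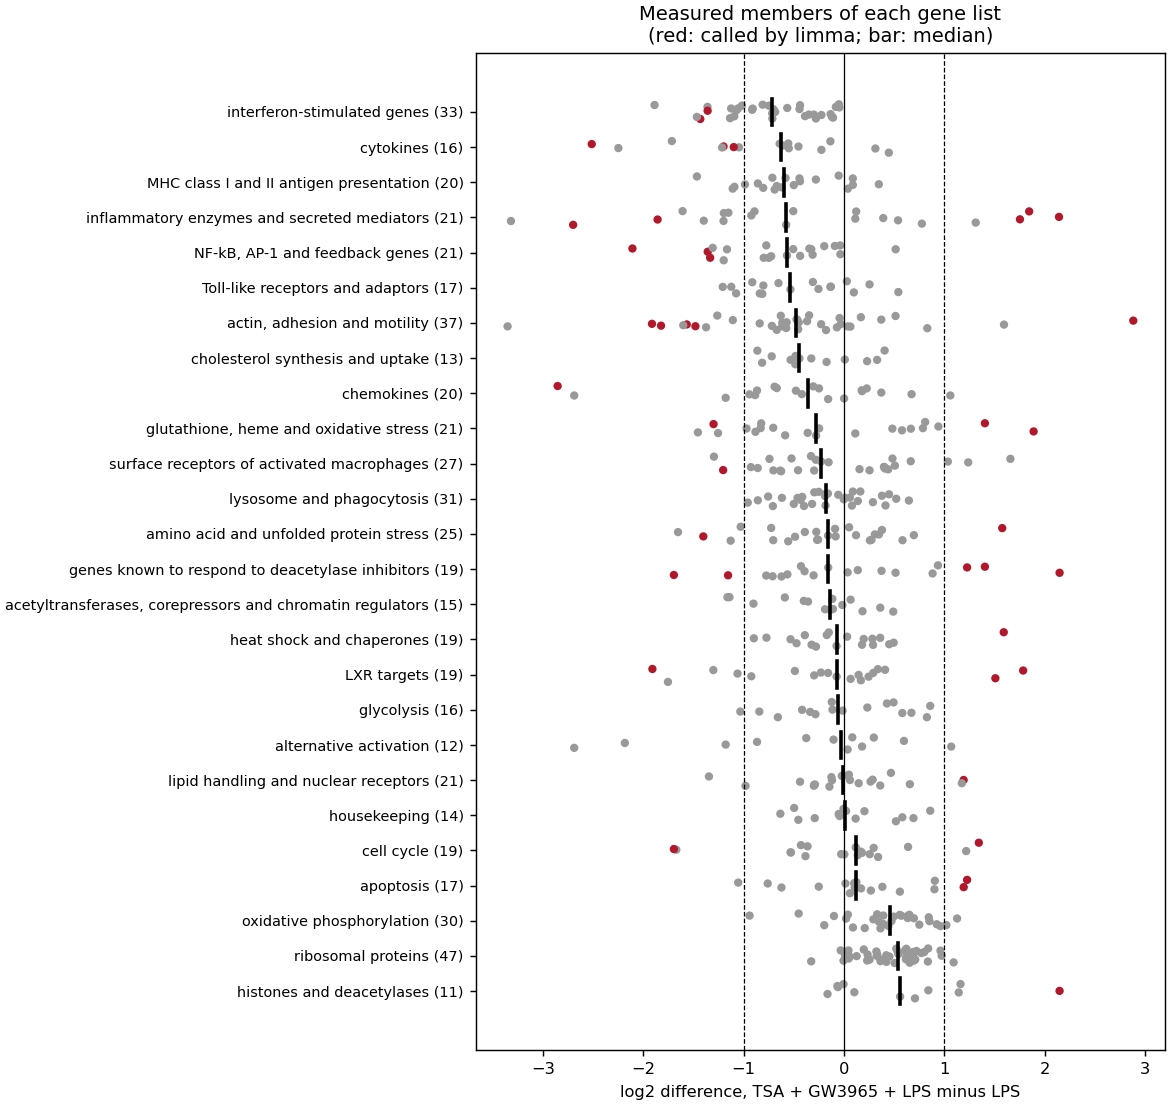
The log2 difference TSA + GW3965 + LPS minus LPS for every measured member of 26 gene lists, with the number measured in brackets, a bar at the list median and limma calls in red. Dashed lines mark 2-fold. Interferon-stimulated genes lie wholly below 0, with a median of -0.71, and ribosomal proteins mostly above it, with a median of 0.54.

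How far the difference with both drugs departed from the sum of the single-drug differences was measured on the 4 LPS-treated arrays. The departure is the log2 level in TSA + GW3965 + LPS minus that in TSA + LPS and in GW3965 + LPS, plus that in LPS. Over 4865 genes above the floor on all 4 arrays its median was 0.07 and its quartiles were -0.33 and 0.50. It was 2-fold or more above the sum for 332 genes, below it for 133, and within 2-fold for 4400. Since LPS enters all 3 differences, a high or low reading on that array alone shifts the departure.

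Among the 297 genes higher with both drugs the median difference was 1.32, beside 1.33 in TSA + LPS and 0.32 in GW3965 + LPS. Among the 204 lower genes it was -1.20, beside -1.30 and -0.61 on the same arrays. The sum of the single-drug medians thus lay further from 0 than the median with both drugs in each set, while the sets were chosen on the pair itself. Tlr3, the receptor for double-stranded RNA, read 2.64 units in TSA + GW3965 + LPS, 1.87 in TSA + LPS, 1.36 in GW3965 + LPS and 5.75 in LPS, a departure of 2.58. Eif2ak2, the kinase PKR that double-stranded RNA activates, had a departure of 2.68. Both stood lower with both drugs than with LPS alone, but by less than the sum of the single differences. Prpf4b, a splicing kinase, read 1.72 units in TSA + GW3965 + LPS, 7.88 in TSA + LPS, 3.09 in GW3965 + LPS and 2.62 in LPS, a departure of -2.43.

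A second limma fit with a term for TSA together with GW3965 tested the departure, taking the TSA effect as the mean of its values with and without LPS. The residual left in this fit is the dependence of the TSA effect on LPS. Its SEs come from the intensity trend over all genes and are not measured gene by gene. It called 3 of 5080 genes (0.0591%), beside 141 at an unadjusted p under 0.05, with a median SE of 0.57. Parp14, an interferon-induced ADP-ribosyltransferase, read 6.70 units in TSA + GW3965 + LPS, the floor in TSA + LPS, 1.10 in GW3965 + LPS and 7.83 in LPS, with a fitted departure of 5.76 (SE 0.59). Cacna2d1, a calcium channel subunit, read 3.77 units in TSA + GW3965 + LPS and at most 0.316 on the other 5 arrays, with a fitted departure of 3.58 (SE 0.74, adjusted p = 0.00229 by limma). The third, 1700008O03Rik, was chosen after its values were seen: it read 5.25 units in TSA + LPS and 0.91 in GW3965 + LPS, lay at the floor in TSA + GW3965 + LPS and LPS, and had a fitted departure of -4.74 (SE 0.71). All 3 include floored readings, so these sizes are approximate, and each turns on readings of 1 or 2 arrays.

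Pairs of arrays with none in common were then set side by side. Of 4452 genes measured in both pairs, TSA + GW3965 + LPS stood at least 2-fold above LPS for 281 and TSA above No treatment for 298. These lists shared 134 genes, 47.7% of the list with both drugs and 45.0% of the list with TSA alone, which hold 6.31% and 6.69% of the 4452 genes. The lists of lower genes held 143 and 204 genes, 3.21% and 4.58% of all, and shared 46, which is 32.2% of the list with both drugs and 22.5% of the list with TSA alone. Across genes the 2 sets of differences had a Pearson correlation of 0.635. The other higher and lower genes of the combined pair were not measured in TSA against No treatment, and the sharing of higher and of lower genes was not tested for a difference.

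Each drug was also read in the presence and absence of the other. Of 4612 genes, TSA + GW3965 + LPS stood at least 2-fold above GW3965 + LPS for 209 and TSA + LPS above LPS for 344, with 132 in both lists, 63.2% and 38.4% of lists that hold 4.53% and 7.46% of all genes. The lower lists held 50 and 425 genes and shared 38, 76% and 8.94% of lists that hold 1.08% and 9.22%. Of 4425 genes, TSA + GW3965 + LPS stood above TSA + LPS for 75 and GW3965 + LPS above LPS for 22, with 6 in both lists, 8% and 27.3% of lists that hold 1.69% and 0.497% of all genes. The lower lists held 23 and 48 genes and shared 3, 13.04% and 6.25% of lists that hold 0.52% and 1.08%. The correlation across genes was 0.600 for the TSA pairs and -0.126 for the GW3965 pairs. The difference between the drugs was not tested, and the GW3965 lists are short.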

How the data were processed

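Total RNA (0.5 ug) of each sample was amplified to biotin-labelled cRNA and hybridised to 1 single-colour array, per the labels' protocols. The authors deposited linear intensity values. Array medians of 0.981 to 0.987 show that the deposited values were already scaled between arrays. The scaling method and any background subtraction are not given in the sources used here.

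Of 10076 probes 8983 carried 1 gene symbol in GEO's platform annotation, 1 carried several and 1092 none. They stood for 8841 genes, and for the 138 genes with several probes the probe with the highest mean was taken. Each array was floored at its 25th percentile (0.198 to 0.245 units) and the deposited intensities were log2-transformed. A fold against a floored reading is a lower bound. The combined pair was counted at 2-fold, without a test.

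The additive model was fitted with limma 3.58.1 in R 4.3.3 with an intensity trend (2 residual and 16.9 prior degrees of freedom). The fit with the departure term had 1 residual and infinite prior degrees of freedom. Its SEs thus come from the intensity trend over all genes and not from each gene's own residual. All adjusted p-values come from these fits. Separate cultures or animals are not stated in the labels, and the p-values then reflect the spread of these arrays alone, whose number limits the precision. The pipeline was tested on simulated data with independent noise and no LPS effect. That simulation cannot show how often calls are wrong where the TSA effect depends on LPS.

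Members, the 26 gene lists, the 7 marker lists and thresholds were chosen with earlier results of these data known. The lists held 898 symbols, 675 of them on the array, 12 through a synonym. Named genes are the 15 highest and 15 lowest, the 4 members of each list farthest from 0, the 10 induced genes with the largest and the 10 with the smallest difference, the 10 highest and 10 lowest departures and 16 genes fixed by name, 13 of them on the array. Other list members were named where limma called them or for their known role, after their values were seen. Promoter windows came from RefSeq on GRCm38.p6. Alternatives covered scaling, floor, level filter, probe averaging, fold threshold, the choice of induced genes, the prior variance, LPS-treated arrays alone and leaving out each array. Python 3.11.15 with matplotlib 3.10.9 drew the figures.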

Additional observations from a re-analysis of the deposited data

Results flagged for a closer look

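The departure from additivity was called by limma for 3 genes, for which the TSA difference was not the same with and without GW3965 in the interaction term of the fit. The fitted departure was 5.76 for Parp14, 3.58 for Cacna2d1 and -4.74 for 1700008O03Rik on the log2 scale, and each includes floored readings on 1 or 2 of the LPS-treated arrays. With the floor at the array median 0 genes were called.

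Probes without a single gene symbol were outside the gene comparisons. Of 539 such probes measured in the combined pair, 22 were at least 2-fold higher and 29 at least 2-fold lower with both drugs, 51 in all. These probes have no gene name here and their values were not tested.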

How the results depend on the processing

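The 297 higher and 204 lower genes stayed within 1.5 times these counts under quantile normalization, cyclic loess, both other floors, probe averaging and no level filter. Requiring both arrays to stand at or above their medians gave 189 higher genes. A threshold of 1.5-fold gave 764 higher and 654 lower genes, and 3-fold gave 98 and 36. The 50 induced genes that were lower became 79 when induction was read in LPS against No treatment, which shares the LPS array with the comparison. For the combined effect limma called 0 risen, 0 fallen and 0 departures with the floor at the array median, where prior degrees of freedom fell. The 48 falls became 73 under cyclic loess, 27 without the intensity trend and 74 on the LPS-treated arrays only. Leaving out each array other than TSA + GW3965 + LPS, an alternative chosen after seeing the data, gave 130 to 461 risen and 27 to 315 fallen genes. The highest counts, 461 and 315, came without the TSA + LPS array, and the lowest fallen count, 27, without the LPS array. The cause of these changes was not tested. Without the LPS array the effect of Psca reversed to -1.71, within a range of -1.71 to 0.45 over the arrays left out. No paired analysis was possible because each group has 1 array. The number of arrays limits the precision, readings near the floor carry only bounds, and a call that was missed does not show that a gene was level.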
